A study of Homo sapiens with 21 samples.

Results

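NF-kB is a family of transcription factors that switches on chemokines, cytokines, adhesion molecules and survival genes, and 42 genes of this kind were described in A673, a cell line made from an Ewing sarcoma, a tumour driven by the fusion oncoprotein EWS/FLI. The genes were chosen by symbol, as NF-kB subunits, regulators of the pathway, chemokines, cytokines, surface receptors and effectors. Of the 42, 41 were matched to a row among the 57820 genes of the table (CCL5 was not analysed here), and 40 reached 10 on the linear scale in at least 3 of the 21 libraries and were tested. CXCL5 did not reach that level in any library. CSF3 reached it in no control library and CSF2 in 1, so both passed through the groups in which they were higher, and counts over the members that passed carry that selection.

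RNA was sequenced from 21 libraries in 5 groups, and all of them are A673 cells carrying an RNAi construct and a second vector. The control group (iLuc, n = 4, replicates 1, 2, 3 and 5) carried RNAi against luciferase with an empty vector. The other 17 libraries carried RNAi against EWS/FLI, with an empty vector (iEF, called knockdown here, n = 5), with wild-type EWS/FLI of type IV (wtEF, n = 5), with a mutant named mut9 (n = 3, replicates 3 to 5) or with a mutant named delta 22 (del22, n = 4, replicates 1 to 4). Replicates with the same number share a labelled batch, and selection ran for 4 days before the rescue vector was introduced. All values come from 1 cell line, and the labels do not say whether replicates were separate cultures, so the p-values measure the spread between these libraries.

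In resting cells NF-kB dimers are held in the cytoplasm by inhibitors of the IkB family. Signals from TNF and interleukin-1 receptors or from pattern-recognition receptors lead to IkB phosphorylation and loss, and the dimers move to the nucleus and bind kB sites near their target genes. Many of those targets are the pathway's own parts: IkB-alpha and A20 shut the signal off again, while IL-1, TNF and the chemokines pass it to neighbouring cells.

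Windows around kB-like letters show what part of this gene set shares at its start sites and what it does not. They are RefSeq sequences of build GRCh38.p14, not of the hg19 build of the expression table. RefSeq entries were found for 35 of the 42 genes, and CCL2, CCL5, CD40, CSF1, CSF3, NFKBIE and RELB had none. Each window ends before the start site and runs 5′ to 3′ along the gene's strand, with a match to the NF-kB consensus (a 10-base motif, read on both strands) in capitals, where overlapping matches are merged and TNFAIP3 holds 2 separate ones. The first 5 are ELR chemokines of the chromosome 4 cluster, the next 4 are an inhibitor, a second inhibitor, an adhesion molecule and a subunit. CXCL8, the other ELR chemokine of the set, also lies on chromosome 4. It had no match to the NF-kB consensus in its 250 bases before the start and is not shown.
CXCL1, chr4:73869279-73869358, plus strand: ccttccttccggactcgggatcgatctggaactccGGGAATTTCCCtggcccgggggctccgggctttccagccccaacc
CXCL2, chr4:74099229-74099308, minus strand: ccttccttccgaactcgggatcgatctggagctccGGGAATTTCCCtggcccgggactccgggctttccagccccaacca
CXCL3, chr4:74038724-74038803, minus strand: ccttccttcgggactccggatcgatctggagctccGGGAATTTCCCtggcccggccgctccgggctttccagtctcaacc
CXCL6, chr4:73836553-73836632, plus strand: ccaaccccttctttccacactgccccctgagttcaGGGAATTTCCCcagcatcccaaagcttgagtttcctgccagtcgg
CXCL5, chr4:73998724-73998803, minus strand: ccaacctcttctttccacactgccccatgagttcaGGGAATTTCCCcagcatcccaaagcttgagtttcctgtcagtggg
TNFAIP3, chr6:137867157-137867236, plus strand: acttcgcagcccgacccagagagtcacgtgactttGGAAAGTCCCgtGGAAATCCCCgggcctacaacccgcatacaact
NFKBIA, chr14:35404786-35404865, minus strand: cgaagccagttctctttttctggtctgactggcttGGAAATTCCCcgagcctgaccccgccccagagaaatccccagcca
VCAM1, chr1:100719645-100719724, plus strand: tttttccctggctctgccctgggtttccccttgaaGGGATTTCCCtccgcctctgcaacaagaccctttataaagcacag
REL, chr2:60881492-60881571, plus strand: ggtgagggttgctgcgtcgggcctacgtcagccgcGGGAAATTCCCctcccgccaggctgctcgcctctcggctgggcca
TNFAIP6, chr2:151357428-151357504, plus strand: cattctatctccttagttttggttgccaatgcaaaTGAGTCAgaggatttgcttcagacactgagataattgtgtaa
The last window, of TNFAIP6, has no match to the NF-kB consensus in its 250 bases before the start, and its capitals mark the AP-1 motif TGANTCA.

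CXCL1, CXCL2, CXCL3, CXCL5 and CXCL6 held the same capital letters at nearly the same place, starting at position -79, -78, -79, -91 and -90 from the start site. Over the whole windows, whose counts include the shared capitals, they fell into 2 kinds. Without gaps, CXCL1 and CXCL3 were identical at 73 of 80 bases and CXCL5 and CXCL6 at 76 of 80, while CXCL1 and CXCL6 shared 34 of 80. An NF-kB consensus match lay within 250 bases before a start in 19 of the 35 genes (54.3%) and in 11.8% of 27305 RefSeq genes. TGANTCA matched in 6 of the 35 (17.1%, against 8.06% of genes) and GGAAGGAA, a paired ETS-type repeat, in 2 (5.71%, against 3.76%: CXCL1 and CXCL2, in the lower-case letters that open their windows, on the other strand). A match describes letters only, and the absence of one says only that these letters are not in this window. No binding or chromatin data were analysed here.

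Levels below are the deposited log2 values, which are normalized, have the form of regularized logarithms and hold no library totals, so the depth of each library is unknown. Values are listed in order of replicate number, and differences are between log2 values. Such values draw low genes together, so differences of low genes are understated, and because the values are not per length, levels are compared within a gene and not between genes. Within each library between 16708 and 17326 genes reached 10 on the linear scale. FLI1, whose sequence is the 3′ part of the fusion and is also carried by the rescue constructs, stood at 11.69, 11.61, 11.56 and 11.68 in the control libraries and 9.67, 9.84, 9.99, 9.59 and 9.76 in the knockdown libraries. The rescue libraries held 10.69, 10.46, 10.35, 10.46 and 10.42 with wild type, 10.39, 10.2 and 10.1 with mut9 and 11.51, 11.22, 10.99 and 11.38 with delta 22. FLI1 was thus lower in each knockdown library than in each control library (limma adjusted p = 4.7e-12) and higher again in every rescue library, most of all with delta 22. Of 7 tested Ewing sarcoma markers, all 7 were lower after knockdown, against 34.0% of all genes. CD99, the surface marker of these tumours, is listed at 0 in every library and was not tested. Why it is listed so is not known here, and the 0 is not read as absence of its RNA.

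Over the genes called higher after knockdown, one library stood apart from its group. The third wild-type library had the highest of the 5 wild-type values for 36 of the 37 genes that the knockdown raised, while its FLI1 value of 10.35 was the lowest of the 5. The first knockdown library was the lowest of its group for 32 of the 37 and the first delta 22 library the lowest of its group for 33. In mut9 replicate 3 was the highest for 31. Calls that changed when one of these libraries was left out are given beside the results.

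Knockdown of EWS/FLI raised 37 of the 40 tested genes, lowered TNFAIP6 and left CD40 and REL without a call. The median difference was 4.65 on the log2 scale, against -0.01 over all 18040 genes tested. Calls are adjusted p below 0.05 in limma, after Benjamini-Hochberg over all genes tested, 2-sided. In this comparison 35.5% of all genes were called higher and 34.0% lower. For all 37 no knockdown library overlapped a control library, which held for 30.8% of all genes in that direction. Among the 38 members that reached 10 in at least 3 control libraries, 35 were higher. In bulk RNA, more cells that express a gene and more RNA per cell cannot be told apart.

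**Figure D1:**
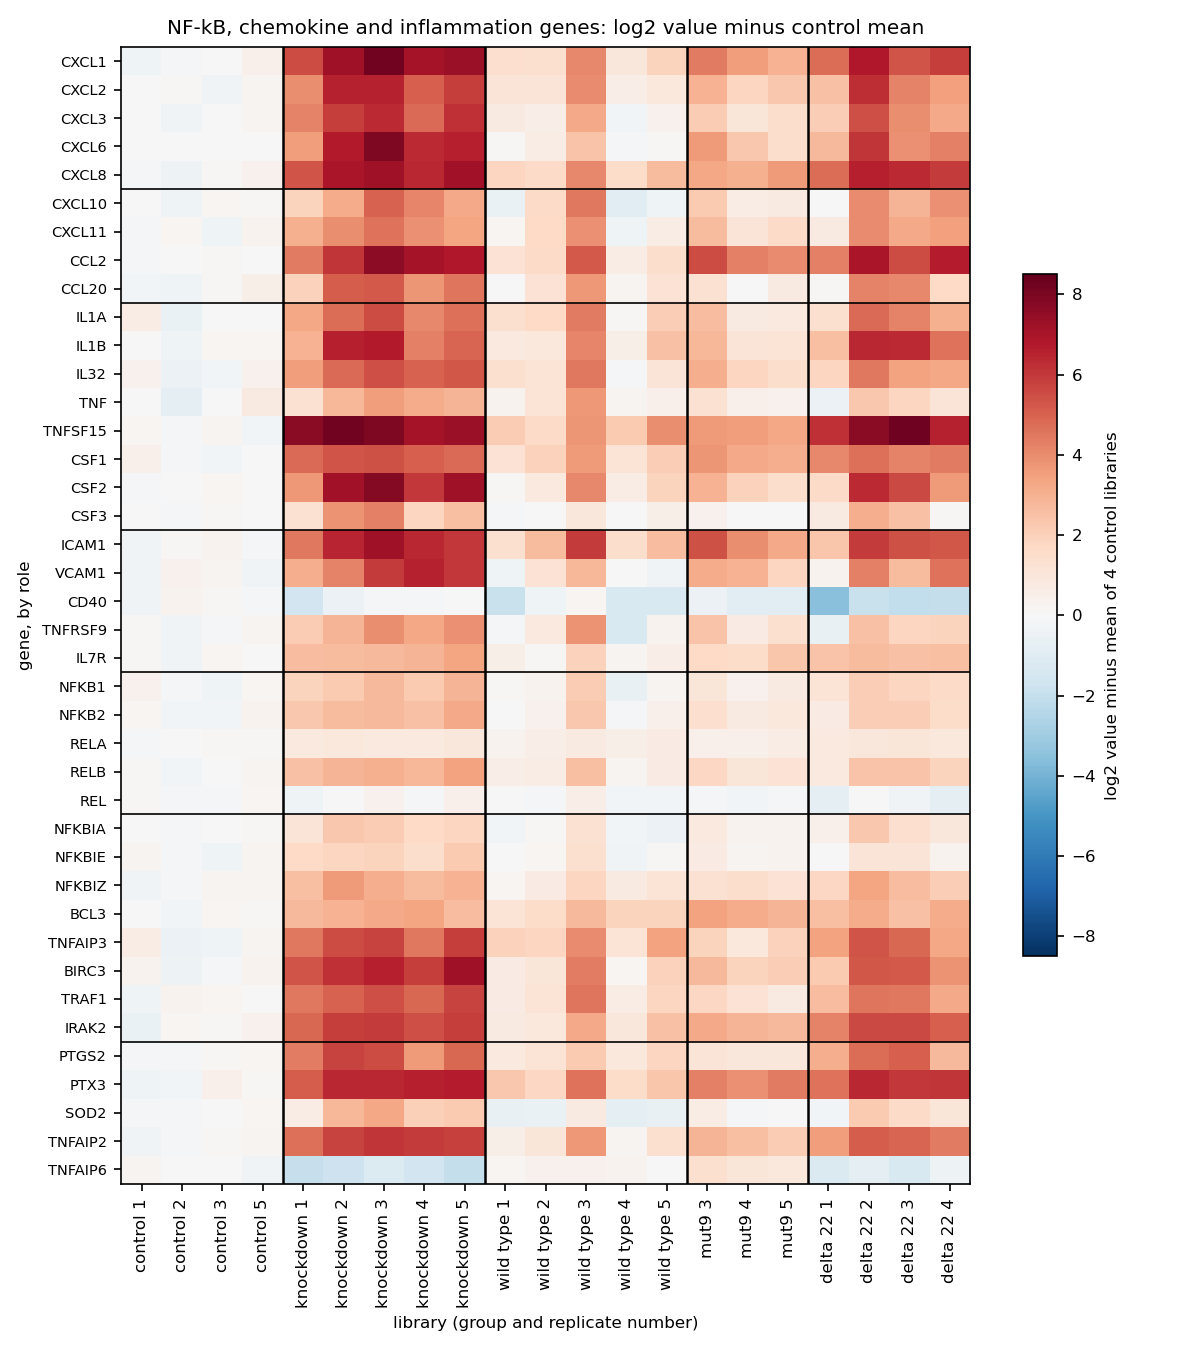
Log2 value of each of the 40 tested genes in each of the 21 libraries, minus the mean of the 4 control libraries (color scale, log2 units). Rows are grouped by role and columns by group and replicate number, red is above the control mean and blue below. The knockdown and delta 22 columns are red for most genes, TNFAIP6 is blue in both, and the third wild-type column is redder than the other wild-type columns.

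The chemokines with an ELR motif attract neutrophils through CXCR1 and CXCR2, and all 5 that were tested rose, by a median of 6.22. CXCL8, which encodes interleukin-8, stood at 9.33, 9.0, 9.51 and 9.8 in the control libraries and at 14.75, 16.33, 16.63, 15.81 and 16.58 after knockdown. CXCL1 stood at 4.85, 5.12, 5.25 and 5.66 in the controls and at 10.75, 12.41, 13.44, 12.28 and 12.57 after knockdown. CXCL6 stood at 4.31, 4.31, 4.27 and 4.28 in the controls and at 7.82, 11.01, 12.2, 10.63 and 10.89 after knockdown. In each of the 3 the lowest knockdown library, always the first, lay more than 3 log2 units above the highest control library. CXCL1 rose by 7.07 ± 0.56 (SE, limma adjusted p = 1.26e-09), CXCL8 by 6.61 ± 0.47 (limma adjusted p = 2.48e-10) and CXCL6 by 6.22 ± 0.73 (limma adjusted p = 2.75e-07). CXCL2 and CXCL3 rose by 5.58 and 5.5. CXCL5, whose window carries the same kB letters as its neighbours, stayed between 0.09 and 0.69 in all 21 libraries. Transcripts of CXCL1, CXCL2 and CXCL3 share 4.81%, 12.5% and 6.01% of their 50-base stretches with one another, so the split of reads among the 3 is uncertain.

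The other chemokines bring in monocytes and lymphocytes, and all 4 that were measured rose. CCL2, which recruits monocytes through CCR2, was nearly flat across the controls at 6.54, 6.7, 6.74 and 6.67 and reached 11.07, 12.73, 14.25, 13.72 and 13.49 after knockdown. CCL20, the ligand of CCR6, went from 5.25, 5.14, 5.6 and 5.99 to 7.44, 10.62, 10.69, 9.22 and 10.06. CXCL11, a ligand of CXCR3, went from 4.07, 4.33, 3.83 and 4.47 to 7.2, 8.11, 8.76, 8.03 and 7.55. The first knockdown library was the lowest in all 3, and the third was the highest. The rise was 6.39 ± 0.76 for CCL2 (SE, limma adjusted p = 3.6e-07), 4.11 ± 0.82 for CCL20 (limma adjusted p = 0.000164) and 3.76 ± 0.69 for CXCL11 (limma adjusted p = 7.32e-05). CXCL10, a second CXCR3 ligand, rose by 3.5 ± 0.94 (limma adjusted p = 0.00261).

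All 8 cytokines and growth factors rose, by a median of 4.96. TNFSF15, a TNF family ligand also named TL1A, had the largest difference of the 40 genes. Its control libraries held 5.49, 5.13, 5.52 and 5.05 and its knockdown libraries 12.95, 13.5, 13.26, 12.34 and 12.65, a rise of 7.64 ± 0.44 (SE, limma adjusted p = 1.29e-11). CSF2, the granulocyte-macrophage colony-stimulating factor, was near the limit of the filter in the controls at 3.0, 3.13, 3.33 and 3.1 and stood at 6.84, 10.28, 10.95, 9.16 and 10.32 after knockdown. IL1B, the secreted form of interleukin-1, moved from 6.56, 6.21, 6.73 and 6.73 to 9.5, 13.14, 13.29, 10.87 and 11.53. CSF2 and IL1B varied far more among the knockdown libraries (SD 1.63 and 1.6) than TNFSF15 did (SD 0.46). CSF1, the macrophage growth factor, stood at 7.5, 6.96, 6.83 and 7.09 in the controls and at 11.91, 12.45, 12.52, 12.15 and 11.92 after knockdown, with no overlap and a rise of 5.1 ± 0.34 (limma adjusted p = 1.12e-10). The remaining 4 rose by 4.83 (IL32), 4.47 (IL1A), 2.76 (TNF) and 2.75 (CSF3, the granulocyte growth factor).

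Among the 5 surface molecules 4 rose and CD40 had no call. ICAM1, a ligand of leukocyte integrins, stood at 6.61, 6.95, 7.16 and 6.78 in the controls and 11.36, 13.35, 14.06, 13.3 and 12.89 after knockdown. VCAM1, a second adhesion molecule of the same kind, stood at 5.85, 6.53, 6.41 and 5.91 in the controls and at 9.26, 10.41, 12.1, 12.7 and 12.19 after knockdown. TNFRSF9, the costimulatory receptor 4-1BB, stood at 6.32, 5.91, 6.12 and 6.46 in the controls and at 8.34, 9.1, 10.13, 9.5 and 10.08 after knockdown. The rises were 6.12 ± 0.81 for ICAM1 (SE, limma adjusted p = 1.4e-06), 5.16 ± 0.81 for VCAM1 (limma adjusted p = 1.24e-05) and 3.23 ± 0.75 for TNFRSF9 (limma adjusted p = 0.000777). IL7R, the interleukin-7 receptor chain, was tight in both groups, at 9.92, 9.49, 9.94 and 9.87 and 12.4, 12.5, 12.56, 12.71 and 13.14, and rose by 2.86 ± 0.27 (limma adjusted p = 1.49e-08). CD40, a TNF receptor family member that signals through NF-kB, held 8.47, 9.07, 8.87 and 8.67 in the controls and 7.14, 8.3, 8.68, 8.67 and 8.75 after knockdown. The first 2 knockdown libraries lay below the control range and the other 3 within it (difference -0.47 ± 0.4, limma adjusted p = 0.307).

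The NF-kB subunits had the smallest median difference of the 7 roles, 2.41. Of the 5, 4 rose, by 0.87 to 2.92, and REL had no call. RELB, the partner of p52 in the non-canonical arm, stood at 8.28, 7.95, 8.16 and 8.42 in the controls and 10.67, 11.06, 11.23, 11.02 and 11.63 after knockdown. NFKB2, the precursor of p52, stood at 9.53, 9.11, 9.13 and 9.63 in the controls and at 11.61, 12.05, 12.11, 11.87 and 12.57 after knockdown. NFKB1, the precursor of p50, stood at 10.99, 10.41, 10.26 and 10.74 in the controls and at 12.51, 12.82, 13.38, 12.85 and 13.5 after knockdown. All 3 groups of values were separated by more than 1 log2 unit between the nearest control and knockdown libraries (RELB 2.92 ± 0.37, limma adjusted p = 8.95e-07). RELA, the p65 subunit of the canonical dimer, rose by only 0.87 ± 0.08, yet with a small spread (limma adjusted p = 1.43e-08). REL, the c-Rel subunit best known from lymphocytes, held 9.44, 9.3, 9.24 and 9.51 in the controls and 9.04, 9.38, 9.75, 9.19 and 9.83 after knockdown. Those values overlapped on both sides (difference 0.07 ± 0.19, limma adjusted p = 0.767), and 43.1% of the 50-base stretches of REL transcripts are shared with other annotated genes, so its value is uncertain.

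All 8 IkB family members, inhibitors and adaptors rose, by a median of 4.05. BIRC3, the cIAP2 ubiquitin ligase, stood at 8.34, 7.58, 7.84 and 8.33 in the controls and at 13.38, 14.23, 14.63, 13.91 and 15.22 after knockdown. IRAK2, a kinase of the interleukin-1 and Toll-like receptor pathway, stood at 6.01, 6.74, 6.67 and 6.94 in the controls and at 11.45, 12.48, 12.56, 12.04 and 12.47 after knockdown. TNFAIP3, which encodes the feedback inhibitor A20, stood at 8.71, 7.57, 7.76 and 8.33 in the controls and at 12.6, 13.65, 13.81, 12.56 and 13.97 after knockdown. The rises were 6.25 ± 0.68 for BIRC3 (SE, limma adjusted p = 9.88e-08), 5.61 ± 0.43 for IRAK2 (limma adjusted p = 6.76e-10) and 5.22 ± 0.53 for TNFAIP3 (limma adjusted p = 4.26e-08). TRAF1, an adaptor of TNF receptors, rose by 5.12. The smallest rises were those of the IkB family: NFKBIA (IkB-alpha) rose by 1.81, NFKBIE (IkB-epsilon) by 1.83 and the nuclear IkB protein NFKBIZ by 2.98. BCL3, a nuclear IkB protein that acts with p50 and p52, stood at 6.14, 5.95, 6.37 and 6.25 in the controls and 8.91, 9.15, 9.38, 9.51 and 8.82 after knockdown, and NFKBIE at 8.62, 8.25, 7.99 and 8.57 in the controls and 10.05, 10.19, 10.23, 9.88 and 10.57 after knockdown. Neither overlapped between the groups, and BCL3 rose by 2.98 ± 0.24 (limma adjusted p = 1.64e-09).

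Of the 5 effector genes 4 rose and TNFAIP6 fell. PTX3, a secreted pattern-recognition protein, stood at 8.0, 8.14, 8.8 and 8.48 in the controls and 13.5, 14.79, 14.79, 14.95 and 15.01 after knockdown. TNFAIP2, a TNF-induced gene, stood at 7.06, 7.29, 7.49 and 7.61 in the controls and at 12.04, 13.09, 13.46, 13.29 and 13.14 after knockdown. PTGS2, the inducible cyclooxygenase, stood at 9.05, 9.08, 9.3 and 9.32 in the controls and at 13.55, 14.9, 14.75, 12.79 and 14.07 after knockdown. They rose by 6.25, 5.64 and 4.83, with standard errors of 0.48, 0.5 and 0.45 (limma adjusted p = 8.9e-10, 5.51e-09 and 1.28e-08). SOD2, the mitochondrial superoxide dismutase, rose by 2.2. TNFAIP6, the secreted hyaluronan-binding protein TSG-6, was the exception, with 12.75, 12.57, 12.51 and 12.22 in the controls and 10.54, 10.74, 11.37, 10.92 and 10.49 after knockdown. Every knockdown library lay below every control library, and TNFAIP6 fell by 1.7 ± 0.17 (limma adjusted p = 4.22e-08).

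Within the 4 batches that hold both groups, the median difference over the 40 genes was 3.03 in batch 1, 5.02 in batch 2, 5.38 in batch 3 and 4.70 in batch 5. Each of the 37 raised genes was above its own batch's control in all 4 batches, and TNFAIP6 was below it in all 4.

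**Figure D2:**
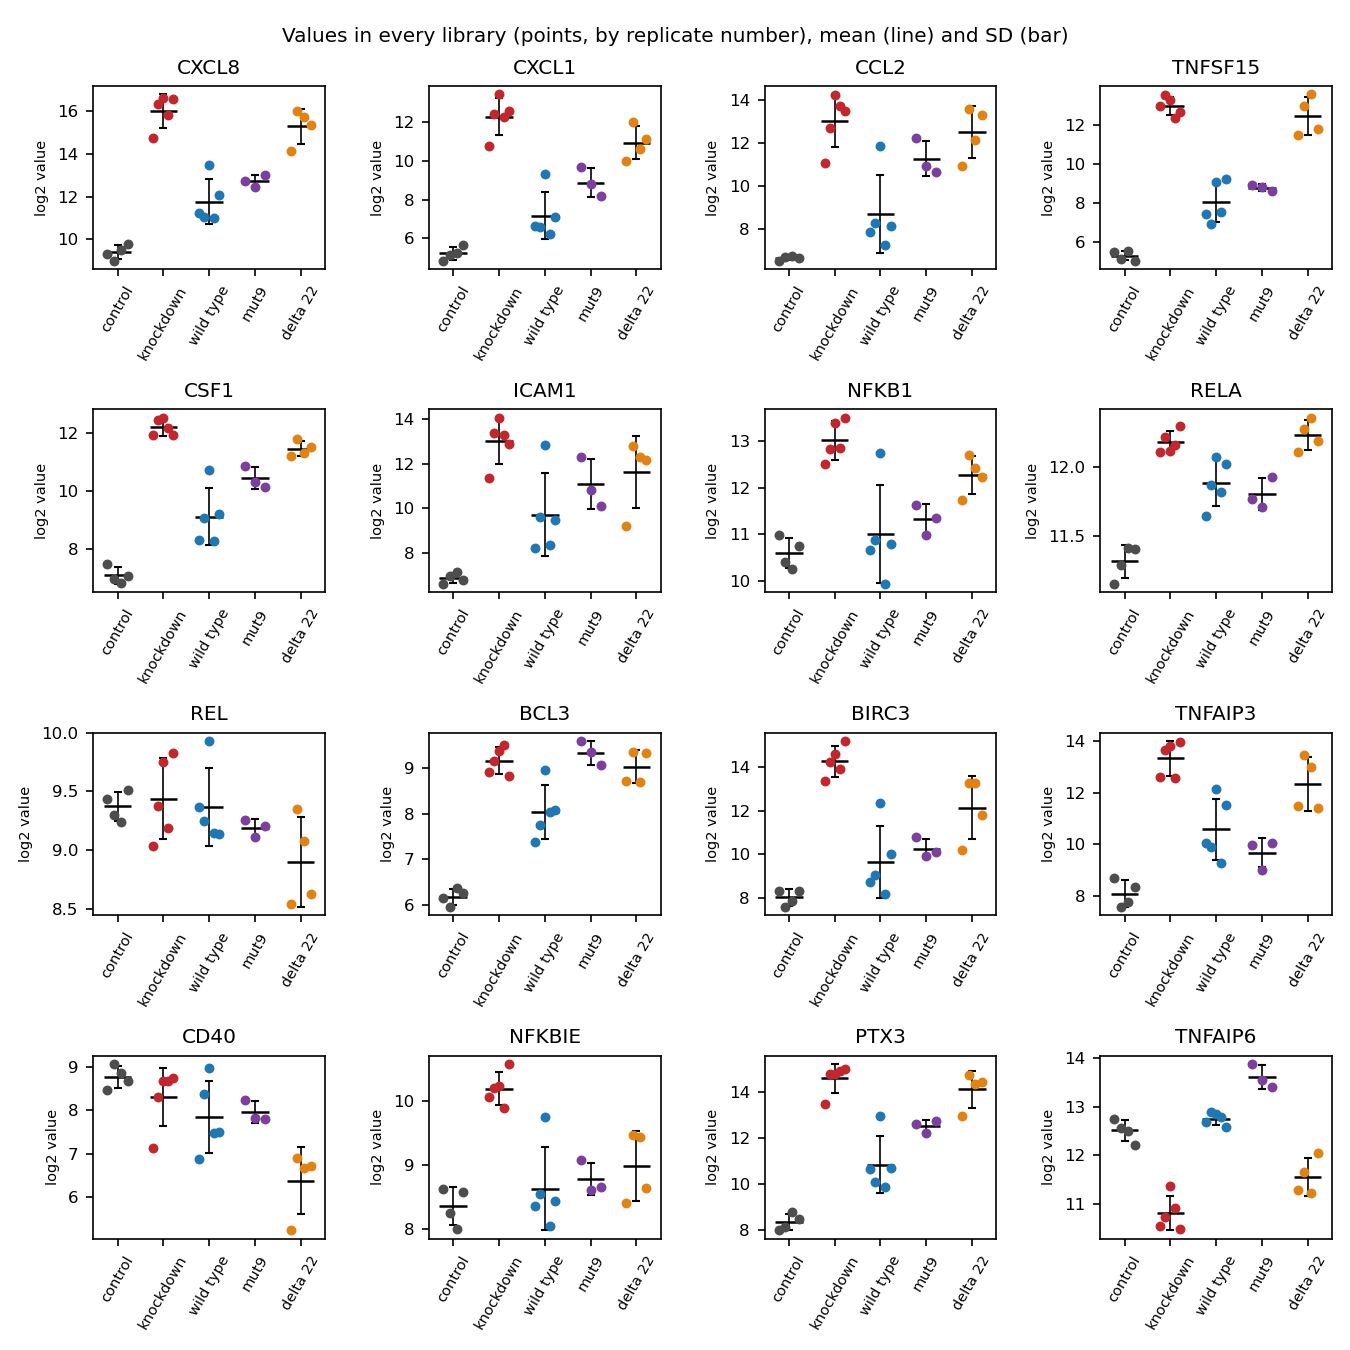
Log2 value of 16 genes in every library (points, in order of replicate number within each group), with the group mean (line) and SD (bar), n = 4 control, 5 knockdown, 5 wild type, 3 mut9 and 4 delta 22. Vertical axes differ between panels and do not start at 0. TNFAIP6 runs opposite to the other genes, CD40 is lowest with delta 22, and BCL3 with mut9 lies among the knockdown values.

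Wild-type EWS/FLI lowered the same 37 genes that the knockdown had raised and raised TNFAIP6. Of all genes, 32.3% were called lower against the knockdown group and 29.6% higher. The knockdown libraries enter both comparisons, so the 2 are not independent, and the values stand side by side below. The median difference was -2.78 over the 40 genes, against 0.01 over all genes. Without the third wild-type library, 37 were again lower and 1 higher. For 18 of the 37 every wild-type library lay below every knockdown library, which held for 22.6% of all genes.

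**Figure D3:**
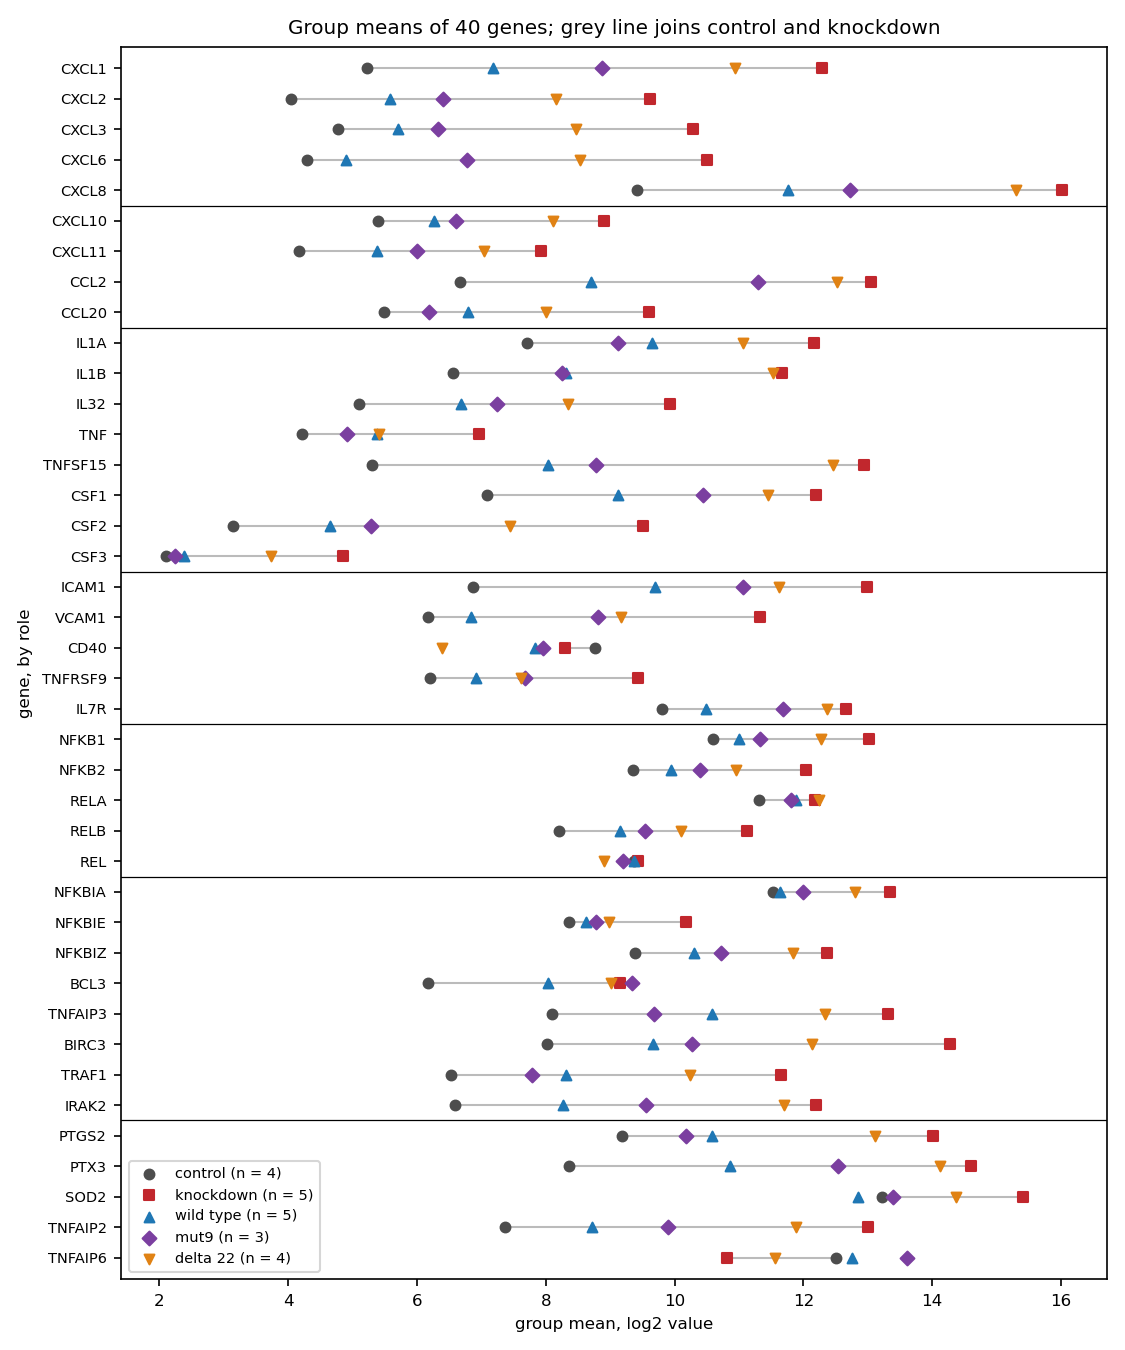
Mean log2 value of the 40 tested genes in each of the 5 groups (symbols), with a grey line between the control and knockdown means. For most genes the wild-type mean lies nearest the control mean, mut9 next and delta 22 nearest the knockdown mean.

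With wild type, CXCL1 stood at 6.66, 6.59, 9.31, 6.21 and 7.12. CXCL8 stood at 11.23, 11.03, 13.48, 10.99 and 12.08. CXCL6 stood at 4.37, 4.94, 6.73, 4.11 and 4.39. In all 3 of these ELR chemokines the third library was the highest, and all 5 wild-type libraries lay below all knockdown libraries. CXCL1 fell by 5.11 ± 0.53 (SE, limma adjusted p = 8.79e-08), CXCL8 fell by 4.26 (limma adjusted p = 8.97e-08) and CXCL6 fell by 5.6 (limma adjusted p = 8.14e-07). CCL2 stood at 7.88, 8.31, 11.9, 7.27 and 8.17. CCL20 stood at 5.55, 6.73, 9.21, 5.74 and 6.74. CXCL11 stood at 4.33, 5.85, 8.07, 3.84 and 4.81. For these 3 the third library reached into the knockdown range while the other 4 stayed below it. CCL2 fell by 4.35 ± 0.72 (limma adjusted p = 3.16e-05).

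Among the cytokines, TNFSF15 stood at 7.44, 6.93, 9.06, 7.53 and 9.23 with wild type. CSF2 stood at 3.25, 3.97, 7.24, 3.75 and 5.01. IL1B stood at 7.38, 7.44, 10.69, 7.06 and 9.04. In all 3 the third or the fifth library was the highest. CSF1 stood at 8.31, 9.08, 10.72, 8.29 and 9.19. TNFSF15 and CSF1 lay below every knockdown library and above every control library, and CSF2 and IL1B were less evenly spread. TNFSF15 fell by 4.9 ± 0.41 (SE, limma adjusted p = 5.55e-09) and CSF1 by 3.07 ± 0.32 (limma adjusted p = 1.03e-07). TNF, the classical activator of the pathway, had the largest adjusted p among the cytokines and fell by 1.58 ± 0.61 (limma adjusted p = 0.0304), and in batch 3 its wild-type value was above its knockdown value. That call was lost with the compared groups alone, with batches 3 to 5 alone, and on leaving out any 1 of knockdown libraries 2 to 5 or of wild-type libraries 1, 4 and 5 (limma adjusted p from 0.0517 to 0.0804).

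On the cell surface, ICAM1 stood at 8.22, 9.59, 12.83, 8.37 and 9.48. VCAM1 stood at 5.8, 7.39, 8.97, 6.17 and 5.87. TNFRSF9 stood at 6.07, 7.05, 10.05, 4.92 and 6.48 with wild type. The third ICAM1 value lay within the knockdown range, and so did the third TNFRSF9 value, while VCAM1 was below all knockdown libraries. IL7R stood at 10.33, 9.9, 11.79, 10.03 and 10.38, a group that fell by 2.18 ± 0.26 (SE, limma adjusted p = 4.61e-07). CD40, at 6.87, 8.39, 8.97, 7.48 and 7.49, was spread across the knockdown range and beyond it on both sides (difference -0.47 ± 0.38, limma adjusted p = 0.29).

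RELB stood at 8.77, 8.86, 10.78, 8.44 and 8.9. NFKB2 stood at 9.35, 9.74, 11.66, 9.2 and 9.8. NFKB1 stood at 10.67, 10.88, 12.75, 9.94 and 10.8. The third library was the highest in each. REL stood at 9.37, 9.25, 9.93, 9.15 and 9.14 with wild type. For the first 3 the third library reached into the knockdown range and the other 4 stayed below it, and REL overlapped both groups (difference from knockdown -0.07 ± 0.18, limma adjusted p = 0.743). RELA fell by 0.3 ± 0.08 (limma adjusted p = 0.0024), with means of 11.31 in the control, 12.18 in the knockdown and 11.88 in the wild-type group. The RELA call was lost with quantile scaling (limma adjusted p = 0.0572) and with batches 3 to 5 alone (0.0564). BIRC3 stood at 8.72, 9.06, 12.36, 8.18 and 10.01. IRAK2 stood at 7.38, 7.48, 9.8, 7.56 and 9.11. TNFAIP3 stood at 10.06, 9.9, 12.13, 9.28 and 11.51. All 3 lay below every knockdown library. BCL3 stood at 7.37, 7.74, 8.96, 8.04 and 8.07. NFKBIE stood at 8.36, 8.54, 9.74, 8.05 and 8.44. BCL3 fell by 1.12 ± 0.23 (limma adjusted p = 0.000265) and, in 4 of 5 libraries, stayed between the control and the knockdown ranges.

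Among the effectors, PTX3 stood at 10.66, 10.09, 12.98, 9.89 and 10.69. TNFAIP2 stood at 7.86, 8.38, 11.02, 7.59 and 8.75. PTGS2 stood at 10, 10.38, 11.43, 10.07 and 11.03 with wild type. All 3 lay below every knockdown library. TNFAIP6 stood at 12.68, 12.89, 12.85, 12.79 and 12.58, above every knockdown library and within or just above the control range. It rose by 1.95 ± 0.16 against the knockdown group (SE, limma adjusted p = 5.65e-09). SOD2 fell by 2.57 ± 0.44 (limma adjusted p = 4.29e-05), to a mean of 12.85 against 13.22 in the control group. Of the members not given by library, CXCL2, CXCL3, CXCL10, IL32, IL1A, CSF3, TRAF1, NFKBIA and NFKBIZ differed by -4.05, -4.57, -2.63, -3.25, -2.52, -2.47, -3.34, -1.71 and -2.06, all called lower.

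Within batches 1 to 5 the median of wild type minus knockdown over the 40 genes was -2.39, -3.54, -1.37, -3.91 and -2.96. Of the 37 lowered genes 36 were below their own batch's knockdown library in all 5 batches, the exception being TNF in batch 3.

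Set against the control group, the wild-type rescue still stood higher for 17 of the 40 genes, with none called lower (background 21.3% higher and 18.3% lower). The 17 were CXCL1, CXCL8, CCL2, IL1A, TNFSF15, CSF1, ICAM1, RELA, RELB, NFKBIZ, BCL3, TNFAIP3, TRAF1, IRAK2, PTGS2, PTX3 and TNFAIP2. TNFSF15 was higher by 2.74 ± 0.44 (SE, limma adjusted p = 7.26e-05), ICAM1 by 2.82 ± 0.81 (limma adjusted p = 0.00945) and BCL3 by 1.86 ± 0.24 (limma adjusted p = 8.25e-06). The count depended on which libraries entered. It was 12 or 13 on leaving out any 1 control library and 13 with the compared groups alone. It was 14 without wild-type library 5 and 16 to 20 without wild-type library 1, 2 or 4. Without the third wild-type library 11 were higher. CCL2, IL1A, RELB, NFKBIZ, PTGS2 and TNFAIP2 were then no longer called (limma adjusted p from 0.0523 to 0.128). CD40 was then lower, at -1.22 (limma adjusted p = 0.0168, against -0.93 and 0.0699 with that library). Within batches the median difference was 0.48, 1.03 and 0.70 in batches 1, 2 and 5 and 3.54 in batch 3, where all 40 genes were above the control library. With batch as a block CD40 was also called lower (limma adjusted p = 0.00559) and IL7R higher, by 0.72 (limma adjusted p = 0.0331, against 0.68 and 0.0517 without the block), and IL32, BIRC3, CXCL2, CCL20, IL1B and CSF2 were called higher too, 24 genes in all.

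**Figure D4:**
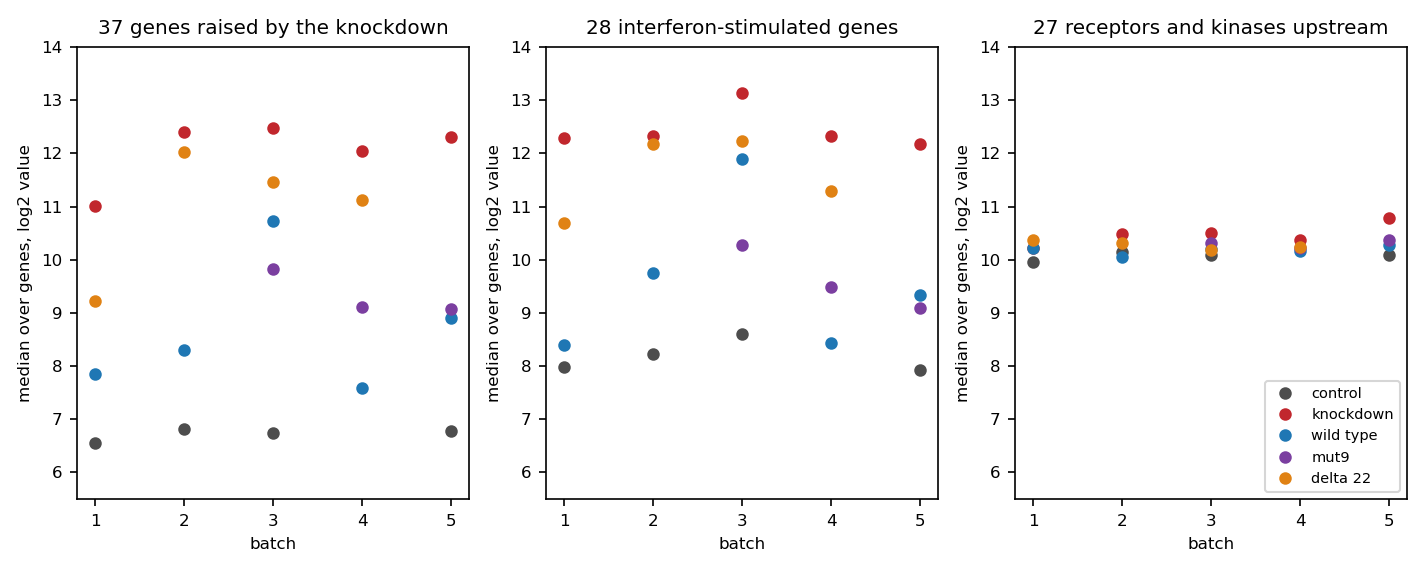
Median log2 value in each library (points) over 37 genes raised by the knockdown, 28 interferon-stimulated genes and 27 receptors and kinases upstream of NF-kB, by batch and group. In batch 3 the wild-type library stands at 10.72 for the raised genes and 11.90 for the interferon-stimulated genes, above every other wild-type library. The median over the upstream genes stays between 9.95 and 10.79 in all libraries. Of the 27, 20 were called higher after knockdown, against 35.5% of all genes.

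The third wild-type library was high for interferon-stimulated genes as well, with a median of 11.90 over 28 of them. The rest of the wild-type group held 8.40 to 9.75, the controls 7.93 to 8.60 and the knockdown libraries 12.18 to 13.14. Its median over the Ewing sarcoma markers was 11.44, inside the wild-type range of 11.22 to 11.66. Its summed linear level of 12 leukocyte markers was 217, inside the wild-type range of 178 to 595. What sets this library apart was not tested.

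Mut9 lowered 32 of the 40 genes against the knockdown group and raised TNFAIP6 (background 25.5% lower and 23.0% higher), with a median difference of -2.18. For 29 every mut9 library lay below every knockdown library, which held for 24.6% of all genes. The remaining 7 were CXCL10, CCL2, ICAM1, TNFRSF9, CD40, REL and BCL3. With mut9 in replicates 3 to 5, CXCL1 stood at 9.66, 8.79 and 8.19. CXCL8 stood at 12.71, 12.45 and 13.02. CXCL6 stood at 7.91, 6.6 and 5.81. The 3 ELR chemokines were lower than in the knockdown libraries, apart from 1 CXCL6 value. CCL20 stood at 6.8, 5.55 and 6.23. CXCL11 stood at 6.87, 5.3 and 5.83. Both were below every knockdown library. CXCL8 fell by 3.29 ± 0.51 (SE, limma adjusted p = 2.71e-05).

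TNFSF15 stood at 8.93, 8.83 and 8.6 with mut9. CSF2 stood at 6.12, 5.11 and 4.65. IL1B stood at 9.41, 7.65 and 7.7. TNFSF15 hardly varied among the 3 libraries, IL1B more. CSF1 stood at 10.86, 10.31 and 10.15. Every value of these 4 cytokines was under the lowest knockdown library. TNFSF15 fell by 4.15 ± 0.48 (SE, limma adjusted p = 8.07e-07) and CSF1 by 1.75 ± 0.37 (limma adjusted p = 0.00066). VCAM1 stood at 9.32, 9.12 and 7.99. IL7R stood at 11.5, 11.39 and 12.14. VCAM1 overlapped the knockdown range in 1 library and IL7R in none. RELB stood at 9.94, 9.26 and 9.44. NFKB2 stood at 10.81, 10.11 and 10.27. NFKB1 stood at 11.63, 10.99 and 11.35. The 3 subunits were below every knockdown library, and replicate 3 was the highest mut9 library in each. BIRC3 stood at 10.78, 9.94 and 10.09. IRAK2 stood at 9.83, 9.47 and 9.37. TNFAIP3 stood at 9.98, 9.02 and 10.03. Of the 3, TNFAIP3 alone had its highest value in replicate 5. NFKBIE stood at 9.07, 8.61 and 8.65. Its replicate 3 was the highest. PTX3 stood at 12.62, 12.22 and 12.77. TNFAIP2 stood at 10.24, 9.95 and 9.51. PTGS2 stood at 10.3, 10.12 and 10.14. In all 7 the mut9 libraries were below the knockdown libraries. Of the members not given by library, CXCL2, CXCL3, IL32, IL1A, CSF3, TNF, RELA, TRAF1, NFKBIA, NFKBIZ and SOD2 differed by -3.23, -3.95, -2.69, -3.05, -2.62, -2.06, -0.38, -3.86, -1.35, -1.64 and -2.02, all called lower. Within batches 3 to 5 the median over the 40 genes was -2.51, -2.73 and -2.66.

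The count of genes lowered by mut9 ran from 29 to 35 when 1 library was left out. Without knockdown replicate 1 it was 35, as ICAM1, CCL2 and CXCL10 were then called lower, at -2.33, -2.26 and -2.70 (limma adjusted p = 0.039, 0.0274 and 0.0428). ICAM1 was also called without mut9 replicate 3 (-2.54, limma adjusted p = 0.0479). With batch as a block ICAM1, CCL2, CXCL10 and TNFRSF9 were called lower, 36 genes in all (limma adjusted p = 0.00589, 0.0244, 0.017 and 0.0273). CXCL11 was not called without the filter on low values (limma adjusted p = 0.062), with batches 3 to 5 alone (0.0664), or without knockdown replicate 2, 3 or 4 or mut9 replicate 4 or 5 (from 0.0606 to 0.158). VCAM1 was not called without knockdown replicate 4 (limma adjusted p = 0.0565), mut9 replicate 5 (0.105) or batch 3 (0.0645). TNF was not called without mut9 replicate 4 or 5 (limma adjusted p = 0.0723 and 0.0711), and IL7R without mut9 replicate 4 (0.0548).

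The genes that mut9 did not lower by the test were of different kinds. CCL2 stood at 12.23, 10.97 and 10.68. ICAM1 stood at 12.3, 10.8 and 10.1. TNFRSF9 stood at 8.63, 6.87 and 7.56, and in each replicate 3 was the highest. Their differences from the knockdown group were -1.76 ± 0.83 (SE, limma adjusted p = 0.0874), -1.93 ± 0.88 (limma adjusted p = 0.0784) and -1.75 ± 0.82 (limma adjusted p = 0.0856), and that of CXCL10 was -2.3 ± 1.02 (limma adjusted p = 0.0707). With batch as a block these 4 were called lower, at -2.10 for CCL2, -2.27 for ICAM1, -2.0 for TNFRSF9 and -2.64 for CXCL10 (limma adjusted p = 0.0244, 0.00589, 0.0273 and 0.0170). BCL3 stood at 9.59, 9.34 and 9.07, which overlaps the knockdown libraries and lies above all 5 wild-type libraries (difference from knockdown 0.18 ± 0.26, limma adjusted p = 0.601). CD40, at 8.25, 7.83 and 7.81, and REL, at 9.26, 9.11 and 9.21, were not called against the knockdown group (-0.34 and -0.24, limma adjusted p = 0.544 and 0.341). TNFAIP6 stood at 13.88, 13.56 and 13.4, above every other library of the study, and rose by 2.8 ± 0.19 (limma adjusted p = 1.31e-09).

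Mut9 and wild type were then compared directly. Mut9 stood higher for 6 of the 40 genes, BCL3, CCL2, TNFAIP6, PTX3, IL7R and CSF1, and none was called lower (background 11.2% higher and 7.61% lower), with a median difference of 0.58. BCL3 was higher by 1.3 ± 0.26 (SE, limma adjusted p = 0.00227) and TNFAIP6 by 0.85 ± 0.19 (limma adjusted p = 0.00422). For these 2 the mut9 libraries did not overlap the wild-type libraries, against 13.2% of all genes in that direction. In all 3 shared batches mut9 was above wild type for 8 of the 40 genes, BCL3, TNFAIP6, CCL2, CSF1, CXCL1, CXCL6, VCAM1 and IRAK2. That count was not made over all genes. CCL2 was higher by 2.58 ± 0.83 (limma adjusted p = 0.0357), PTX3 by 1.68 ± 0.53 (0.0316), CSF1 by 1.32 ± 0.37 (0.0179) and IL7R by 1.19 ± 0.29 (0.00857). These 4 calls depended on which libraries entered: with batches 3 to 5 alone only BCL3 and TNFAIP6 were called (limma adjusted p = 0.0444 and 0.0412).

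**Figure D5:**
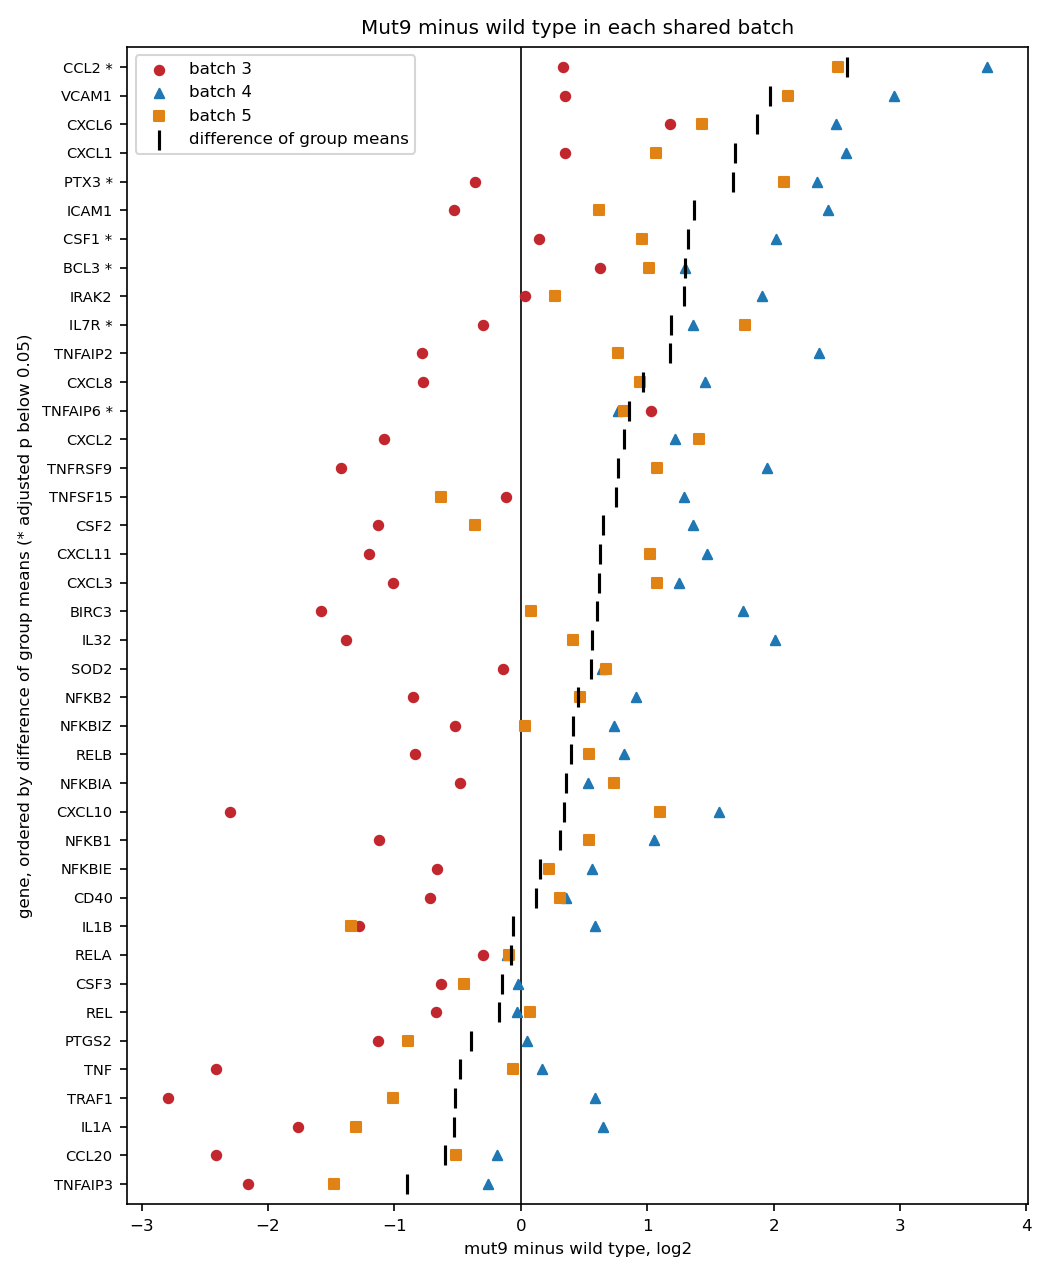
Mut9 minus wild type (log2) for each of 40 genes within batch 3 (circles), batch 4 (triangles) and batch 5 (squares), with the difference of the group means over all libraries (vertical ticks). Genes are ordered by the difference of means and an asterisk marks limma adjusted p below 0.05. Most batch 3 points lie left of 0, where the third wild-type library is the one subtracted, and most batch 4 and batch 5 points lie right of it.

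The sign of the difference turned with the batch for 28 of the 40 genes, while 8 were higher with mut9 in all 3 batches and 4 lower. In batch 3, 32 of the 40 genes were lower with mut9 than with wild type (median -0.74). In batch 4, 35 were higher (median 1.23), and in batch 5, 29 were higher (median 0.54). Shares of all genes by direction in these single pairs of libraries were not computed. Without the third wild-type library 14 genes were called higher with mut9, the 6 above and NFKB2, ICAM1, CXCL6, IRAK2, VCAM1, CXCL1, CXCL8 and TNFAIP2. CXCL1 moved from 1.7 (limma adjusted p = 0.0582) to 2.23 (limma adjusted p = 0.00453), and IRAK2 from 1.29 (0.0573) to 1.68 (0.00602). IRAK2 was also called with batch as a block (1.03, limma adjusted p = 0.0341). Leaving out mut9 replicate 3 or mut9 replicate 5 reduced the count of higher genes to 3 in each case. CCL2 and PTX3 lost their calls both times, CSF1 without replicate 3 and IL7R without replicate 5 (limma adjusted p from 0.0515 to 0.174). TNFAIP3 lay on the other side, at -0.9 ± 0.58 (limma adjusted p = 0.306), and was below wild type in all 3 batches.

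Few of these genes were called with delta 22. Against the knockdown group 37 of the 40 had no call, CD40 and NFKBIE were lower and TNFAIP6 was higher (background 2.26% lower and 2.24% higher). FLI1 was higher with delta 22 than with wild type (limma adjusted p = 9.63e-07). The median difference was -1.04, and within batches 1 to 4 it was -1.19, -0.36, -1.16 and -0.96. For 6 genes every delta 22 library lay below every knockdown library, which held for 3.68% of all genes. Set against the knockdown library of its own batch, 29 of the 40 genes were lower with delta 22 in all 4 batches and 0 were higher in all 4. The share of all genes with this pattern was not computed. The 40 genes were read in the same 4 pairs of libraries, so the count only describes those pairs. CXCL1, CXCL8, IRAK2, TNFAIP3, PTX3, TNFAIP2 and PTGS2 were among the 29. CXCL1 stood at 10, 12.02, 10.6 and 11.13. CXCL8 stood at 14.13, 16.0, 15.72 and 15.35. CXCL6 stood at 7.07, 10.34, 8.18 and 8.55 with delta 22. The first library was the lowest and the second the highest in all 3, and the values overlapped those of the knockdown libraries. The difference of CXCL8 was -0.72 ± 0.47 (SE, limma adjusted p = 0.435). CCL2 stood at 10.95, 13.62, 12.18 and 13.32. CCL20 stood at 5.58, 9.69, 9.55 and 7.17. CXCL11 stood at 4.92, 8.19, 7.4 and 7.63.

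TNFSF15 stood at 11.5, 12.97, 13.56 and 11.81 with delta 22. CSF2 stood at 4.78, 9.5, 8.75 and 6.77. IL1B stood at 9.1, 12.96, 12.92 and 11.15. The first library was the lowest in each. CSF1 stood at 11.19, 11.78, 11.31 and 11.51. The TNFSF15 difference from knockdown was -0.48 ± 0.44 (SE, limma adjusted p = 0.605). ICAM1 stood at 9.22, 12.8, 12.3 and 12.15. VCAM1 stood at 6.49, 10.46, 8.89 and 10.82. TNFRSF9 stood at 5.59, 8.72, 8.06 and 8.07. These 3 were lowest in the first library. IL7R stood at 12.23, 12.51, 12.32 and 12.38. IL7R was nearly constant across the 4 libraries. RELB stood at 9.04, 10.61, 10.63 and 10.1. NFKB2 stood at 10.02, 11.41, 11.47 and 10.89. NFKB1 stood at 11.74, 12.7, 12.43 and 12.23. RELB and NFKB2 lay below every knockdown library, and NFKB1 did not. REL stood at 8.54, 9.35, 9.08 and 8.63. BIRC3 stood at 10.22, 13.27, 13.26 and 11.81. IRAK2 stood at 10.78, 12.17, 12.21 and 11.64. TNFAIP3 stood at 11.49, 13.46, 13.0 and 11.41. The first or the fourth library was the lowest in each. BCL3 stood at 8.72, 9.34, 8.7 and 9.33. BIRC3 lay below every knockdown library without passing the test, and IRAK2, TNFAIP3 and BCL3 overlapped the knockdown values. PTX3 stood at 12.96, 14.75, 14.35 and 14.45. TNFAIP2 stood at 10.91, 12.53, 12.28 and 11.79. PTGS2 stood at 12.3, 13.96, 14.27 and 11.91. All 3 overlapped the knockdown values. CXCL2, CXCL3, CXCL10, IL32, IL1A, CSF3, TNF, RELA, TRAF1, NFKBIA, NFKBIZ and SOD2, not given by library, had no call either.

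The 3 called genes were of different kinds. CD40 stood at 5.23, 6.91, 6.66 and 6.72 with delta 22, below every library of the other groups but for the lowest wild-type value, and fell by 1.92 ± 0.4 (SE, limma adjusted p = 0.00937). It was lower than in the knockdown library of the same batch in all 4 batches, by 1.38 to 2.02 on the log2 scale. NFKBIE stood at 8.41, 9.46, 9.44 and 8.63 and fell by 1.2 ± 0.28 (limma adjusted p = 0.0177). TNFAIP6 stood at 11.29, 11.66, 11.22 and 12.05, between the knockdown and control libraries apart from 2 values within the knockdown range, and rose by 0.74 ± 0.17 (limma adjusted p = 0.0188). Without delta 22 replicate 1, or without replicate 4, NFKBIE was not called (limma adjusted p = 0.0786 and 0.0631), and without delta 22 replicate 2 or 4 or knockdown replicate 5 TNFAIP6 was not (0.0545, 0.0746 and 0.0539). CD40 missed the threshold with the compared groups alone (limma adjusted p = 0.0517) and with batches 3 to 5 alone (0.0625). With batch as a block BIRC3, CXCL6 and VCAM1 were also called lower, at -2.02, -2.03 and -2.23 (limma adjusted p = 0.0402, 0.0494 and 0.0471), against -2.13, -1.98 and -2.17 without it (0.0789, 0.13 and 0.138). CXCL6 was also called lower without knockdown replicate 1 (-2.65, limma adjusted p = 0.0204).

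Delta 22 and wild type differed directly for 34 of the 40 genes, against 61.2% of all genes. With delta 22, 31 were higher and 3 lower, CD40, TNFAIP6 and REL (background 31.7% higher and 29.5% lower), with a median difference of 1.81. TNFSF15 was higher by 4.42 ± 0.44 (SE, limma adjusted p = 4.92e-08), CXCL1 by 3.76 ± 0.56 (limma adjusted p = 9.71e-06) and CXCL8 by 3.54 ± 0.47 (limma adjusted p = 2.21e-06). CD40 fell by 1.46 ± 0.4 (limma adjusted p = 0.00368), TNFAIP6 by 1.2 ± 0.17 (limma adjusted p = 6.47e-06) and REL by 0.47 ± 0.19 (limma adjusted p = 0.0358). CXCL10, CCL20, IL1A, TNF, TNFRSF9 and NFKBIE had no call. Within batches the median difference was 1.21, 3.06, 0.29 and 2.91 in batches 1 to 4, lowest in batch 3. The count of higher genes ran from 18 to 36 over the settings tried. Without the third wild-type library 36 genes were higher and 2 lower, with CXCL10, CCL20, IL1A, TNFRSF9 and NFKBIE called and REL not (limma adjusted p = 0.11). Without delta 22 replicate 1, 34 were higher, with CXCL10, CCL20 and IL1A called and REL again not (limma adjusted p = 0.135). With batch as a block IL1A and CCL20 were called higher as well.

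The position of each rescue mean between the control and knockdown means can be read for the 36 genes that the knockdown raised by more than 1 log2 unit. Wild type removed a median of 70.6% of the log2 rise (37.6% for BCL3 to 116.9% for SOD2), mut9 59.0% (-6.1% for BCL3 to 95.2% for CSF3) and delta 22 25.4% (2.6% for IL1B to 65.5% for NFKBIE). The 3 shares use the same control and knockdown libraries and are a description. The mut9 means come from fewer batches than the wild-type means, so the 2 medians also differ in the batches they cover. For 8 of the 36 the share was larger with mut9 than with wild type. They were CCL20, IL1A, IL1B, TNF, CSF3, TNFAIP3, TRAF1 and PTGS2, and none of these 8 was called between the 2 constructs. The third wild-type library was the highest of its group for each of the 8, which lowers their wild-type share. Shares without that library were not computed, so the order of the 2 constructs is not settled for these genes. Mut9 was below wild type in all 3 shared batches for CCL20, CSF3 and TNFAIP3, and the sign was mixed for the rest of the 8.

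Receptors and kinases upstream of NF-kB moved in a mixed way. Of 27 tested, 20 were higher after knockdown, 4 lower and 3 not called. The median difference was 0.77, and over all genes 35.5% were called higher and 34.0% lower. The receptors IL1R1, TNFRSF1B and TLR4 rose by 5.56, 5.41 and 5.4 (limma adjusted p = 2.22e-11, 1.22e-10 and 3.65e-10), and the kinase RIPK1 by 0.93 (limma adjusted p = 5.62e-10). The 4 lower genes were TAB1, MAP3K7, IL1RAP and CHUK. Wild type lowered 20 of the 27 and raised 2, mut9 lowered 14 and raised 3, and delta 22 lowered 1. Of all genes, 32.3% were called lower and 29.6% higher with wild type, 25.5% and 23.0% with mut9, and 2.26% lower with delta 22. The same shares stand behind the further lists below. Of 27 further NF-kB target genes, 24 rose after knockdown and none fell (BIRC2 by 2.83, PLAU by 4.94, IRF1 by 4.27 and IER3 by 4.86), wild type lowered 24, mut9 20 and delta 22 2. Of the receptors for the chemokines and cytokines above, 6 of 17 reached the level tested, and 4 rose: TNFRSF25, the receptor of TNFSF15, by 4.45, CSF1R, the receptor of CSF1, by 1.86, CXCR4 by 2.03 and IL2RG by 1.07. CSF2RB, a receptor chain for CSF2, fell by 0.42 (limma adjusted p = 0.0451), and ACKR3 had no call.

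Interferon-stimulated genes moved alongside. All 28 rose after knockdown, against 35.5% of all genes, by a median of 3.86. IFIT3, RSAD2, OASL and ISG20 rose by 4.96, 5.03, 5.24 and 3.94. Wild type and mut9 each lowered all 28, and delta 22 lowered none by the test (background 32.3%, 25.5% and 2.26% lower). Against wild type, none of the 28 was called with mut9, and 6 of the 40 members were called higher (background 11.2% higher and 7.61% lower). With batches 3 to 5 alone 2 of the 40 members were called. Several members, CXCL10 and CXCL11 among them, are also known targets of interferon, and the part of interferon signalling in these values was not tested.

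Markers of other cell types were read in the same libraries. Of all genes, 35.5% were called higher after knockdown and 34.0% lower. Of 12 leukocyte markers 6 were tested, and 5 of these were higher after knockdown (CSF1R, HLA-DRA, CD14, CD68 and ITGAM), while PTPRC, which encodes the pan-leukocyte antigen CD45, stood at 3.92 against 3.75 in the controls, with no call. The summed linear level of the 12 was 109 to 130 in the control libraries, 303 to 537 after knockdown, 178 to 595 with wild type, 356 to 445 with mut9 and 381 to 1124 with delta 22. CD3D, CD3E, MS4A1 and NKG7 were below 0 on the log2 scale in the group means. Of 5 fibroblast markers 4 rose after knockdown, with medians of 5.65 to 5.94 in the controls and 12.23 to 13.08 after knockdown. The fifth, DCN, fell by 0.78 (limma adjusted p = 0.0313) and was raised by wild type, by 2.66 (limma adjusted p = 2.07e-07). Among endothelial markers 2 of 3 tested rose. The part of these marker genes in the results was not tested.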

How the data were processed

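RNA from 21 libraries of the A673 line was sequenced. The authors deposited 1 table of normalized log2 values per gene, and the submitters' processing notes name bcl2fastq, STAR 2.5.2b, HTSeq and DESeq2 with build hg19. The annotation and strand setting are not given in the sources used here. The values hold no library totals, so depth and counting error are unknown, and an overlapping antisense gene cannot be told apart. Of 57820 genes, 17358 were listed at 0 everywhere. Gene identifiers were paired with symbols from a reference list of gene names, which matched 51996. Among the listed genes, SOD2 and DDX58 were matched through GENCODE 29 instead. The 18040 genes with at least log2 of 10 in at least 3 libraries were tested with limma 3.58.1 in R 4.3.3 (intensity trend), with 1 mean per group over all 21 libraries, 7 contrasts and Benjamini-Hochberg adjustment over the genes tested. The procedure was tested on simulated data. No 2 libraries were identical.

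The labels say that the replicate number is the batch. Over 34 pairs of libraries with the same number the deviations from the group means had a mean correlation of 0.203, with 24 above 0.1, against -0.049 over 141 other pairs, with 26 above 0.1. The main fit holds no batch term, so the calls and p-values given do not use the pairing by number unless a batch block is named. Fits with batch as a block stand among the alternatives, with other filters, scalings, weights and sample sets. With the block, 24 in place of 17 genes were higher with wild type than in the control group. Against the knockdown group 36 in place of 32 were lower with mut9, and 5 in place of 2 with delta 22. The knockdown comparison kept 37 higher and 1 lower. Per-library values are given for the 3 members of each role with the largest knockdown difference and for members whose call differs from the rest of their role. The members and lists were chosen with earlier results of these data known.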

Additional observations from a re-analysis of the deposited data

Results flagged for a closer look

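In groups of 4 or 5 libraries, 1 library was separated from the rest by a gap large against the group's range (Dixon's criterion) in 14 of 160 sets of values, where chance gives about 1 in 20. The third wild-type library gave 8 of the 14, all on the high side. It stood at 8.08 for CXCL2 (the other wild-type libraries 4.63 to 5.13), 11.90 for CCL2 (7.27 to 8.31), 7.92 for TNF (4.45 to 5.37) and 11.79 for IL7R (9.90 to 10.38). It also stood at 11.66 for NFKB2 (9.20 to 9.80), 10.78 for RELB (8.44 to 8.90), 12.98 for PTX3 (9.89 to 10.69) and 14 for SOD2 (12.45 to 12.63). The first knockdown library was low for CD40 at 7.14 (8.30 to 8.75), PTX3 at 13.5 (14.79 to 15.01) and TNFAIP2 at 12.04 (13.09 to 13.46). The first delta 22 library was low for CD40 at 5.23 (6.66 to 6.91). The second control library was low for IL7R at 9.49 (9.87 to 9.94) and NFKBIA at 11.38 (11.57 to 11.61).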

How the results depend on the processing

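The 169 called differences of single genes were recomputed under the alternative settings of their own comparison, and no called difference changed sign. The 37 higher and 1 lower calls of the knockdown comparison held under all settings run except the filter on a mean of at least 100. There 36 members were tested, and 33 were higher and 1 lower. With batch as a replicate block, 5 genes were lower with delta 22 than in the knockdown group, and 1 was lower with wild type than in the control group. The block changed no calls other than these and those given beside the results. With the compared groups alone, delta 22 against knockdown gave 1 lower and 0 higher, and mut9 against wild type 2 higher. With batches 3 to 5 alone, delta 22 against knockdown gave 0 lower and 0 higher, wild type against control 10 higher, mut9 against wild type 2 higher and delta 22 against wild type 18 higher. Quantile scaling gave 1 lower gene for wild type against control, and array weights gave 1 lower there and 11 higher for mut9 against wild type. Leaving out 1 library at a time gave 1 to 3 lower and 0 to 1 higher for delta 22 against knockdown, 11 to 20 higher and 0 to 1 lower for wild type against control, and 3 to 14 higher for mut9 against wild type. Some settings were chosen after seeing the data. Batches 3 to 5 with the replicate block gave 1 lower and 0 higher for delta 22 against knockdown, and for mut9 against wild type 2 higher and 1 lower (TNFAIP3, -1.30, limma adjusted p = 0.0201). Without batch 1, delta 22 against knockdown gave 1 lower and 0 higher and wild type against control 1 lower. Without batch 3 the first gave 5 lower and the second 11 higher. REL, uncalled in these settings, changed sign in the knockdown comparison with quantile scaling (-0.144) and without batch 3 (-0.057), and in wild type against knockdown with quantile scaling (0.081). Leaving out 1 library at a time, REL ranged from -0.033 to 0.166 in the first and from -0.211 to 0.028 in the second, with the sign changed without knockdown replicate 3 or 5. The cause of these changes was not tested. Another pseudocount was not run, since the deposited values are already log2. Depth is unknown, so its limit on the low genes CSF2, CSF3 and CXCL5 cannot be given.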
